A study of Mus musculus with 6 samples.

Results

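The 50 genes described here encode splicing factors and heterogeneous nuclear ribonucleoproteins (hnRNPs), and they were taken by gene symbol from a table of 54884 entries. All 50 symbols were found, each in a single row, and none of the measured values was used to choose them. They comprised 12 SR proteins, 5 SR kinases and SR-related proteins, 14 hnRNPs, 13 parts of the core spliceosome and its recruiting factors, and 6 regulators known from neural splicing.

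RNA sequencing had been run on cultured mouse neural stem cells, the dividing precursors of neurons and glia, from the hippocampus of C57BL/6 embryos at day 14 of gestation, at passages 3 to 8. Control cells (3 libraries) carried a lentivirus with the circCon siRNA, and the other cells (3 libraries) carried a lentivirus with an siRNA against circHIPK2, a circle of RNA made from Hipk2. The labels' protocol describes both siRNAs as lentiviral, while other labels call the cells transfected, and untreated cells were not analysed here. The labels do not say whether the 3 libraries of a group came from separate cultures. The p-values therefore set group differences against the variation among these libraries only, and that variation may be technical.

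Introns are removed from pre-mRNA by the spliceosome, in which small nuclear ribonucleoproteins (snRNPs) and their partner proteins recognise the splice sites and the branch point. SR proteins bind exons through an RNA recognition motif and mostly favour inclusion, and kinases of the Clk family phosphorylate their arginine-serine domains. Many hnRNPs oppose them, and the change from Ptbp1 to Ptbp2 is a known switch in splicing as neural progenitors become neurons. Many SR protein and hnRNP genes also regulate their own mRNA through exons that lead to its decay.

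Levels are given in FPKM, fragments per kilobase of transcript scaled to the mapped fragments of the library, and each change is the difference between group means of log2(FPKM + 1), circHIPK2 siRNA minus control. A gene was called when limma's adjusted p (Benjamini-Hochberg, over the 13702 entries that averaged 1 FPKM or more) was below 0.05. Depth read from the smallest steps in FPKM was between 18460000 and 21940000 fragments per library. In the circHIPK2 siRNA libraries, 9 entries linked to ribosomal RNA held 11.5%, 3.24% and 19.9% of all FPKM, against 0.321% to 0.580% in controls. FPKM is a share of the library, and the median change of all tested entries was -0.12. After median-of-ratios scaling, which divides each library by the median ratio of its genes to their means over the libraries, that median was -0.01, so scaled values are given beside the deposited ones. Of the 10 neural stem cell markers, 9 averaged at least 1 FPKM. Their sum was between 1801 and 2221 FPKM in controls and between 1469 and 1794 with circHIPK2 siRNA, with no overlap. Such a sum follows its most abundant genes, and single markers could differ from it. Nes was at 82.2, 64.1 and 85.3 FPKM in controls and 63.3, 77.0 and 72.6 FPKM with circHIPK2 siRNA, which overlapped. Sox2 was at 116, 82.2 and 96.3 FPKM in controls and 104, 118 and 91.4 FPKM with circHIPK2 siRNA, which also overlapped. The other stem cell markers are not given singly here. The 7 neuron markers, of which 5 averaged at least 1 FPKM and none was at 0 throughout, summed to between 126 and 136 FPKM in controls and between 96.9 and 111 FPKM with circHIPK2 siRNA, with no overlap. Astrocyte markers summed to between 478 and 783 FPKM in controls and between 602 and 980.1 with circHIPK2 siRNA, oligodendrocyte markers to between 758 and 822 FPKM and between 606 and 759 FPKM, and those of microglia, endothelium and fibroblasts to at most 0.572 FPKM in any library. The 8 liver markers summed to between 33.1 and 54.3 FPKM in controls and between 1.96 and 2.22 with circHIPK2 siRNA. In such bulk samples, fewer cells of a type and less RNA per cell cannot be told apart, and the part of these entries in the results below was not tested. Hipk2 stood at 31.8, 36.9 and 30.9 FPKM in controls and 28.4, 28.8 and 23.8 FPKM with circHIPK2 siRNA; this entry measures the gene's mRNA and checks neither the circle nor its silencing.

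None of the 50 genes was called in either direction, while 0.117% of all tested entries were called higher and 0.139% lower. As deposited, 45 of the 50 were lower on average with circHIPK2 siRNA and 5 higher (Srrm2, Hnrnph2, Son, Hnrnpu and Ptbp3), where 77.1% of all tested entries were lower. Their median change was -0.20, which is 0.08 below that of all entries on the log2 scale. The smallest adjusted p by limma belonged to Clk1, at 0.167, and the highest to Ptbp3, at 0.986. At an unadjusted p below 0.05, 16 of the 50 were lower and 0 higher, against 15.5% and 1.83% of all tested entries.

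Scaling moved most of the 50 towards no difference. With median-of-ratios scaling 34 were lower and 16 higher, where 53.4% of all entries were lower, and their median change was -0.07. Calls remained at 0, with a smallest adjusted p of 0.241 (limma, Clk1), and at an unadjusted p below 0.05 there were 5 lower and 2 higher, against 7.82% and 5.81% of all entries. When the 9 ribosomal RNA linked entries were removed and each library was rescaled to the same total, 24 of the 50 were below 0 and their median was 0.01. Of all entries 36.0% were then below 0, with a median of 0.064. Relative to that of all entries, the median of the 50 was -0.056 with this setting and -0.076 as deposited. Measured against 0, the direction turned with this setting for 21 of the 45 genes that were lower as deposited, while the median of all entries also rose above 0.

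All 3 circHIPK2 siRNA libraries lay below all 3 controls for 17 of the 50 as deposited, and above them for 0, where 22.1% and 2.65% of all tested entries did so. After scaling, 10 lay entirely lower, namely Srsf4, Srsf5, Srsf9, Tra2a, Clk1, Hnrnpa0, U2af2, Prpf8, Snrpa and Snrpb, and 1 entirely higher, Son, where the shares of all entries were 11.4% and 8.96%. Each 95% interval from limma is for a single gene as deposited, and its width reflects the spread of these 6 libraries, which may be technical. For 49 of the 50 the interval lay within a 2-fold change in either direction, and for 36 within a 1.5-fold change. The exception at 2-fold was Hnrnpf, with an interval from -1.42 to 0.51.

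**Figure D1:**
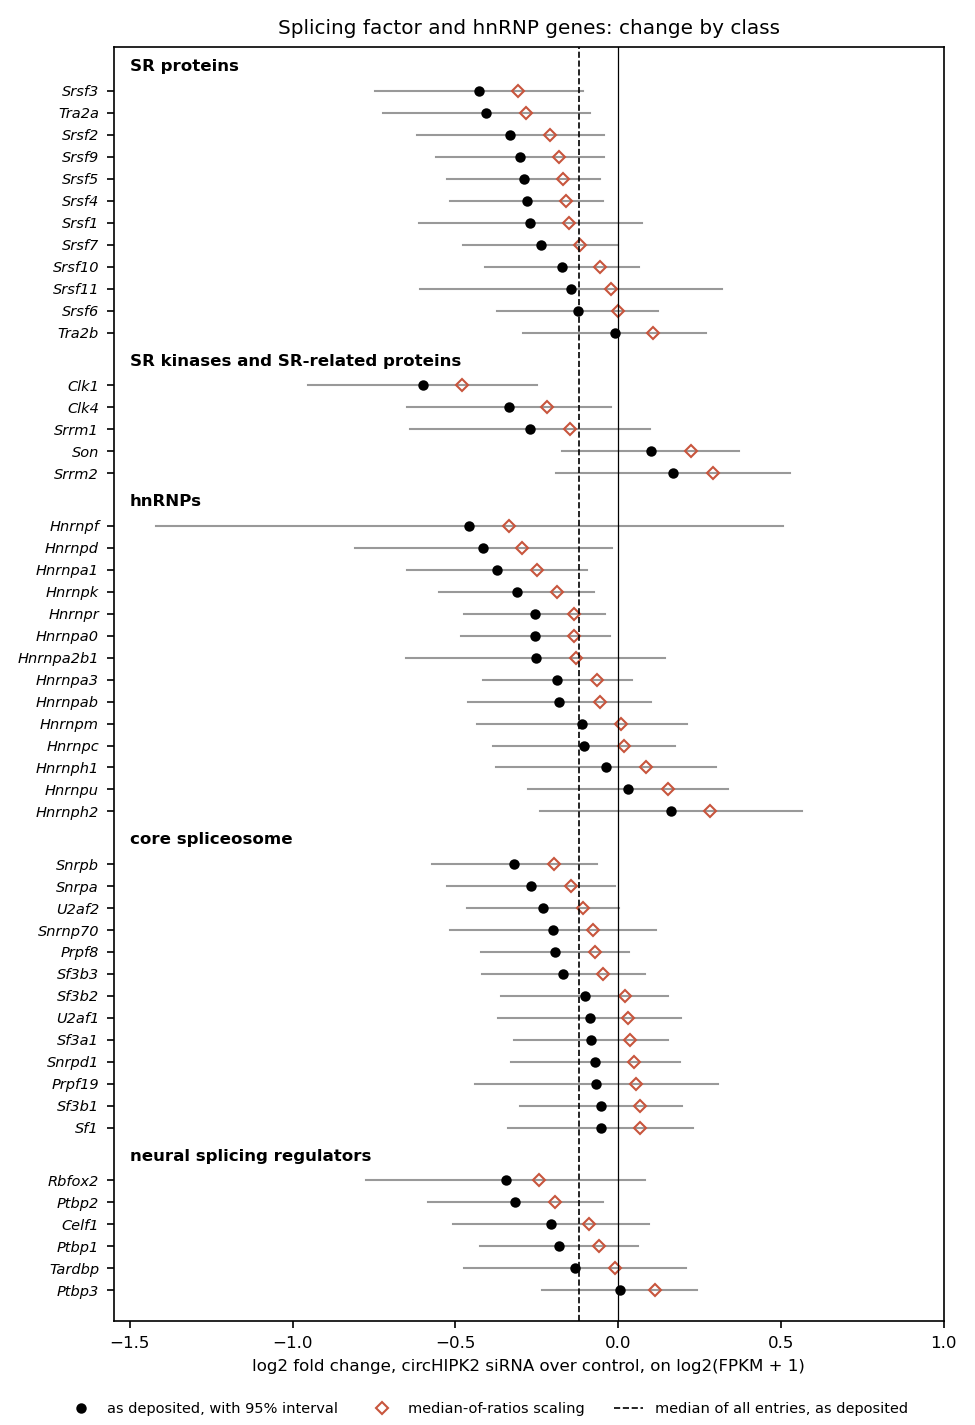
Change of each of the 50 genes, circHIPK2 siRNA minus control on log2(FPKM + 1), by class; filled points are deposited values with 95% intervals from limma (n = 3 libraries per group), open diamonds are values after median-of-ratios scaling, and the dashed line is the median of all tested entries as deposited (-0.12). Of the filled points 45 lie below 0, and of the diamonds 34.

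Promoter sequences were available from RefSeq (GRCm38.p6) for 44 of the 50 genes, as 61 windows of 300 bases that ran from 250 bases before to 50 bases after a transcript start. Among short letter patterns known from promoters, each searched on both strands, 4 were found as follows: the GC box GGGCGG in 72.1% of windows, the CCAAT box CCAAT in 52.5%, the ETS pattern CCGGAAG in 24.6% and the YY1 pattern ATGGCGG in 18.0%. Over the promoters of all tested entries the shares were 64.1%, 38.4%, 18.3% and 8.36%, and over all RefSeq promoters 35.7%, 37.4%, 8.86% and 4.05%. The TATA box TATAAA was found in 9.84% of the windows of these genes, 6.70% of those of tested entries and 13.6% of all. The E-box CACGTG was found in 13.1%, 10.1% and 7.15%, and the NRF1 pattern GCGCATG in 11.5%, 7.19% and 3.91%. The median window of these genes held 28 CG dinucleotides, against 21 over tested entries and 7 over all promoters. These are matches of letters and not sites, and the shares were not tested.

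The 250 bases before the start are shown for 4 genes, 5′ to 3′ on the + strand of GRCm38.p6, with matches to the 7 patterns above in capitals; ATTGG is CCAAT on the other strand. Srsf3 (chr17:29032410-29032659) and Hnrnpa1 (chr15:103240147-103240396) were among the 17 genes whose deposited values did not overlap and lay lower. Srrm2 (chr17:23802937-23803186) and Son (chr16:91647574-91647823) were the SR-related genes with the higher means. The 4 were chosen after their values were seen. Srsf3 carried a TATA box and a CCAAT box, Hnrnpa1 several CCAAT and GC boxes, and Son CCAAT boxes and the YY1 pattern, while the Srrm2 stretch held none of the 7.
Srsf3: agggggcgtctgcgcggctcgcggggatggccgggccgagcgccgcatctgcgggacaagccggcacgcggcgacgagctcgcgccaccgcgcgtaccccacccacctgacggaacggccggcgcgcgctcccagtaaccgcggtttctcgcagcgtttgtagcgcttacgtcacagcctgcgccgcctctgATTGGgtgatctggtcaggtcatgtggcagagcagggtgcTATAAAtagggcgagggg
Hnrnpa1: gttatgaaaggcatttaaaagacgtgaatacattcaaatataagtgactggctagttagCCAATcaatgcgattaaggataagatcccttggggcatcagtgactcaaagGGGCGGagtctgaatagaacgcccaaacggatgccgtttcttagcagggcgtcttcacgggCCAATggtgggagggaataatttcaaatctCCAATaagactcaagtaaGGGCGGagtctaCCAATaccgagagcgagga
Srrm2: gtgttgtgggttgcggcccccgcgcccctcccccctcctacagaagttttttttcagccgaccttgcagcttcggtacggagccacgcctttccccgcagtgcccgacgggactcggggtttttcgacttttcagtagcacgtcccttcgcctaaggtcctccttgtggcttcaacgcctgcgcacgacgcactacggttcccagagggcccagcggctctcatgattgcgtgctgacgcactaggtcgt
Son: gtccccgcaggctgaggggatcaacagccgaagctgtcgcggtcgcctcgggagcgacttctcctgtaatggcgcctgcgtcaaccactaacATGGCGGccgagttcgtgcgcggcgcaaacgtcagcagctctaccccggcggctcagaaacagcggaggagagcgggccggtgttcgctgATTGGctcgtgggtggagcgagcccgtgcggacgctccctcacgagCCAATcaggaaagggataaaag
The Hnrnpa1 stretch held 11 CG dinucleotides, against 35 in that of Srsf3, 23 in that of Srrm2 and 28 in that of Son.

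The 50 genes were abundant in these cells. Their mean over the 6 libraries had a median of 39.5 FPKM, against 8.67 FPKM for all tested entries. Hnrnpa2b1, an hnRNP that binds pre-mRNA and mRNA widely, was the highest at 306 FPKM, above 99.0% of tested entries. Hnrnpab and Hnrnpk followed at 157 FPKM each, and then Snrnp70 at 105.0 and Hnrnpa1 at 102 FPKM. At the other end stood Celf1 at 13.1, Ptbp3 at 6.41 and Rbfox2 at 5.50 FPKM. Between neighbours in this order the 6 values did not overlap at 3 steps only: between Hnrnpa2b1 and Hnrnpab, between Hnrnpk and Snrnp70, and between Celf1 and Ptbp3. All other neighbours overlapped, so the order among them is not resolved by these libraries. This order is of single entries as deposited and leaves out near-identical copies, described below, which may have taken reads. With the FPKM of its copies added, Hnrnpa1 lay between 413 and 649 FPKM and Hnrnpa3 between 468 and 611 FPKM, above Hnrnpa2b1. Hnrnpk also has copies, so its place is uncertain as well.

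**Figure D2:**
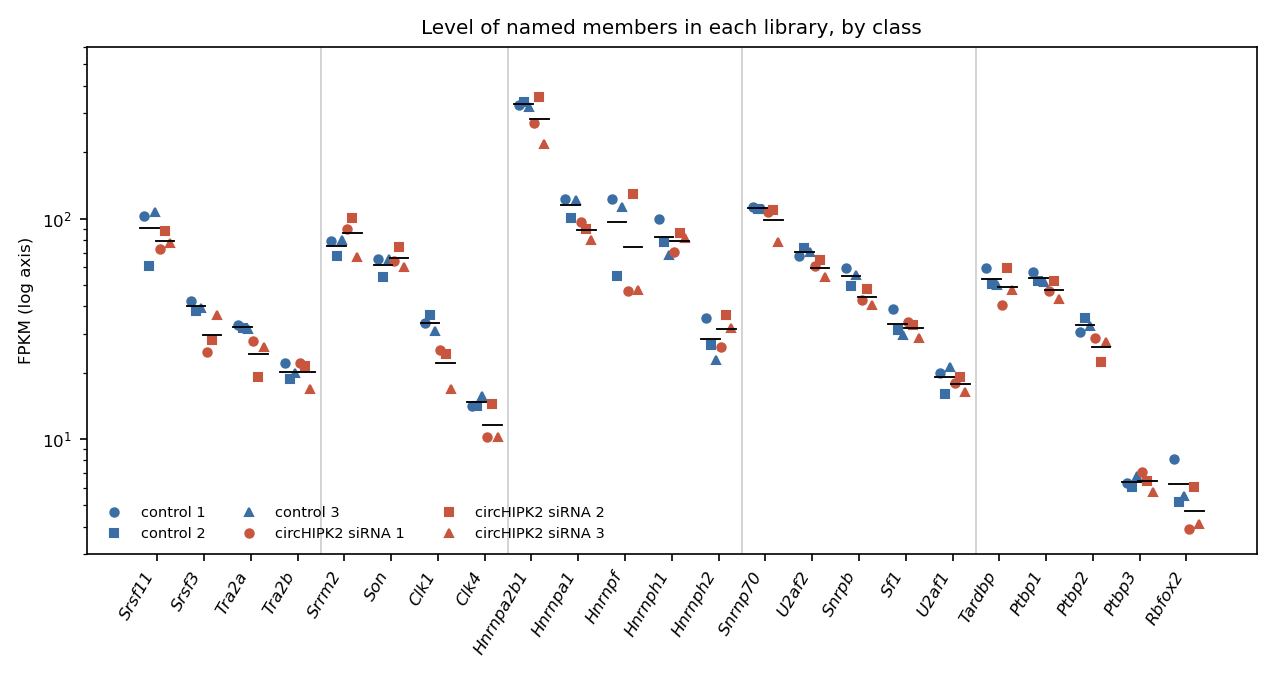
FPKM (log axis) of 23 named genes in each of the 6 libraries, with grey lines between the 5 classes (SR proteins, SR kinases and SR-related proteins, hnRNPs, core spliceosome, neural splicing regulators); blue symbols are control libraries, red symbols circHIPK2 siRNA libraries, and black lines the means of 3. Srsf3, Tra2a, Clk1, Hnrnpa1, Snrnp70, U2af2, Snrpb and Ptbp2 lie entirely lower with circHIPK2 siRNA, as did 22.1% of all tested entries. Hnrnpf spans more than 2-fold within each group.

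The 12 SR proteins, which bind exonic enhancers, were all lower on average as deposited, where 77.1% of all tested entries were lower. Their median change was -0.28, and none was called. With median-of-ratios scaling 11 stayed below 0 (median -0.15), and 8 did so when the ribosomal RNA linked entries were removed. Of all entries, 53.4% and 36.0% were below 0 in these settings. The lowest was Srsf3, a small SR protein that also takes part in mRNA export. Srsf3 stood at 42.3, 38.2 and 39.4 FPKM in controls and at 24.8, 28.1 and 36.4 FPKM in circHIPK2 siRNA libraries 1 to 3. The groups did not overlap, and library 3 of the circHIPK2 siRNA group came close to the lowest control. Its change was -0.43 ± 0.14 (SE, n = 3 per group), with an adjusted p of 0.209 by limma. Scaled, the change was -0.31 and the groups overlapped.

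Tra2a and Tra2b are SR-like proteins related to the fly sex-determination factor Transformer 2. Tra2a was at 33.1, 31.9 and 31.7 FPKM in controls and 27.9, 19.1 and 26.1 FPKM with circHIPK2 siRNA, so that every circHIPK2 siRNA library was lower. The change of Tra2a was -0.40 ± 0.14 (SE), with an adjusted p of 0.221 by limma. Tra2b was at 22.1, 18.7 and 19.9 FPKM in controls and 22.0, 21.4 and 16.9 FPKM with circHIPK2 siRNA, which overlapped, with library 3 of the circHIPK2 siRNA group below the controls. Its change was -0.01 ± 0.12 (SE) as deposited and 0.11 when scaled.

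The most abundant of the class was Srsf11, at 103, 61.1 and 107 FPKM in controls and 72.7, 87.5 and 77.8 FPKM with circHIPK2 siRNA. Control library 2 was the lowest of all 6 for this gene, and the groups overlapped. Its change was -0.15 ± 0.20 (SE), and it was -0.40 without control library 2 and -0.0028 without control library 3. The changes of the remaining 8 lay between -0.33 (Srsf2) and -0.12 (Srsf6). Among them Srsf2, Srsf4, Srsf5, Srsf7 and Srsf9 did not overlap between groups as deposited, while Srsf1, Srsf6 and Srsf10 did. When scaled, Srsf2 and Srsf7 overlapped as well. Of the 12 SR proteins, 7 lay entirely lower as deposited and 4 when scaled (58.3% and 33.3%), against 22.1% and 11.4% of all entries. These shares were not tested. Srsf10, a regulator whose activity depends on its phosphorylation, had the tightest controls of the class, at 16.1, 15.7 and 15.7 FPKM, against 12.9, 15.9 and 13.2 FPKM with circHIPK2 siRNA.

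Clk1, a kinase that phosphorylates SR proteins, had the most negative change among the 50 genes as deposited and when scaled. It stood at 33.8, 36.4 and 30.9 FPKM in controls and 25.3, 24.3 and 16.9 FPKM with circHIPK2 siRNA. Each circHIPK2 siRNA library was below each control, with library 3 the lowest. The means were 33.7 ± 2.77 and 22.2 ± 4.61 FPKM (SD, n = 3), a 1.52-fold lower level. The change was -0.60 ± 0.15 (SE), with a 95% interval from -0.95 to -0.25 and an adjusted p of 0.167 by limma. After scaling the change was -0.48, the groups still did not overlap, and the adjusted p was 0.241 by limma.

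Clk4, a related kinase, was at 14.2, 14.2 and 15.7 FPKM in controls and 10.2, 14.4 and 10.2 FPKM with circHIPK2 siRNA. Library 2 of the circHIPK2 siRNA group lay among the controls and the others lay below them. The change of Clk4 was -0.34 ± 0.14 (SE), with an adjusted p of 0.270 by limma. Srrm1, a nuclear matrix SR-related coactivator of splicing, had a change of -0.27 ± 0.16 (SE), and its groups overlapped.

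Son and Srrm2, 2 very large SR-rich proteins that form the core of nuclear speckles, lay in the other direction. Srrm2 was at 79.1, 67.5 and 79.6 FPKM in controls and 89.6, 101 and 66.9 FPKM with circHIPK2 siRNA. Libraries 1 and 2 of the circHIPK2 siRNA group were above all controls, and library 3 was just below the lowest of them. The change was 0.17 ± 0.16 (SE) as deposited, with an adjusted p of 0.575 by limma, and 0.29 when scaled. Son was at 65.4, 54.5 and 65.4 FPKM in controls and 64.5, 74.0 and 60.4 FPKM with circHIPK2 siRNA, which overlapped. Scaled, the Son values were 61.9, 53.7 and 60.8 in controls and 67.5, 71.5 and 67.0 with circHIPK2 siRNA. On that scale every circHIPK2 siRNA library was higher, the change was 0.22 ± 0.08 (SE), and the adjusted p was 0.305 by limma.

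Of the 14 hnRNPs, 12 were lower on average as deposited (median -0.22), where 77.1% of all tested entries were lower, and none was called. With scaling 9 were below 0 (median -0.10), and 7 when the ribosomal RNA linked entries were removed. The most abundant, Hnrnpa2b1, was at 328, 339 and 321 FPKM in controls and 271, 358 and 217 FPKM with circHIPK2 siRNA. Its controls had a coefficient of variation of 2.71%, while the circHIPK2 siRNA libraries had one of 25.1% and reached both above and below the controls. Its change was -0.25 ± 0.17 (SE), with an adjusted p of 0.454 by limma.

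Hnrnpa1, a well-studied splicing repressor, was at 123, 101 and 121 FPKM in controls and 96.6, 89.5 and 80.1 FPKM with circHIPK2 siRNA. The groups did not overlap as deposited, although control library 2 was near the highest circHIPK2 siRNA library, and they overlapped when scaled. The change was -0.37 ± 0.12 (SE), with an adjusted p of 0.208 by limma. Hnrnpk, which binds poly(C) stretches, did not overlap between groups as deposited either. It was at 184.9, 170.5 and 166 FPKM in controls and 130.1, 149 and 140.5 FPKM with circHIPK2 siRNA, a change of -0.31 ± 0.10 (SE). Scaled, the groups of Hnrnpk overlapped, and its change was -0.19.

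Hnrnpf, which binds G-rich stretches, had the most negative mean change of its class, -0.46 ± 0.42 (SE), and by far the widest spread. It stood at 122.5 and 112 FPKM in control libraries 1 and 3 but at 54.7 FPKM in control library 2. In circHIPK2 siRNA libraries 1 and 3 it was at 46.9 and 47.4 FPKM, and in library 2 at 129 FPKM. Each group thus held values near 50 and values above 100, and the adjusted p was 0.571 by limma. Among the 50 genes, Hnrnpf was the single gene whose highest library exceeded its lowest by over 2-fold within the control group, and also within the circHIPK2 siRNA group. Of all tested entries, 4.25% and 5.31% had such a range in these groups. Without control library 2 its change was -0.82, without circHIPK2 siRNA library 2 it was -0.94, and without any of the other 4 libraries in turn it lay between -0.31 and -0.21.

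The near relatives Hnrnph1 and Hnrnph2 lay close to or above no difference. Hnrnph1 was at 99.2, 78.4 and 68.7 FPKM in controls and 70.5, 85.7 and 81.7 FPKM with circHIPK2 siRNA, a change of -0.04 ± 0.15 (SE). Hnrnph2 was at 35.5, 26.8 and 22.7 FPKM in controls and 26.2, 36.6 and 31.9 FPKM with circHIPK2 siRNA, a change of 0.16 ± 0.18 (SE). Both overlapped between groups, and control library 1 was the highest control for each. Hnrnpu, a scaffold-attachment hnRNP, was the other with a positive mean change as deposited, at 0.03 ± 0.13 (SE). The remaining 7 lay between -0.42 (Hnrnpd) and -0.11 (Hnrnpc), with Hnrnpa0 and Hnrnpr entirely lower as deposited and Hnrnpa0 alone of these also when scaled. Of the 14 hnRNPs, 4 lay entirely lower as deposited and 1 when scaled, against 22.1% and 11.4% of all entries.

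The 13 core spliceosome genes lay nearest to the bulk of the transcriptome. All 13 were lower as deposited, where 77.1% of all tested entries were lower, yet their median of -0.10 was 0.02 above that of all entries. After scaling 6 were below 0 and 7 above, where 53.4% of all entries were below 0. None was called. The 95% intervals of all 13 lay within a 1.5-fold change in either direction, as deposited and when scaled. These intervals reflect the spread of these libraries, which may be technical. Those of U2af1, U2af2, Snrpa and Snrpd1 do not account for their near-identical copies, described below. The most negative was Snrpb, which encodes the SmB core protein of spliceosomal snRNPs, at 59.8, 49.6 and 55.6 FPKM in controls and 42.9, 48.1 and 40.7 FPKM with circHIPK2 siRNA. Its groups did not overlap, as deposited or scaled, and its change was -0.32 ± 0.11 (SE), with an adjusted p of 0.223 by limma.

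Snrnp70, a U1 snRNP protein and the most abundant of the class, was at 113, 111 and 111 FPKM in controls and 107, 109.5 and 78.3 FPKM with circHIPK2 siRNA. Libraries 1 and 2 of the circHIPK2 siRNA group were just under the controls, and library 3 was well below them. The change was -0.20 ± 0.14 (SE), and without library 3 of that group it was -0.05. The least negative was Sf1, the branch point binding protein, at 38.7, 31.1 and 29.8 FPKM in controls and 33.8, 33.0 and 28.7 FPKM with circHIPK2 siRNA, a change of -0.05 ± 0.12 (SE).

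U2af2 and U2af1, the large and small subunits of the factor that recognises the 3′ splice site, differed in overlap. U2af2 was at 67.4, 73.5 and 70.2 FPKM in controls and 60.6, 64.7 and 54.2 FPKM with circHIPK2 siRNA, with no overlap and a change of -0.23 ± 0.10 (SE). U2af1 was at 19.9, 16.0 and 21.2 FPKM in controls and 18.0, 19.1 and 16.3 FPKM with circHIPK2 siRNA, with full overlap and a change of -0.09 ± 0.12 (SE). Snrpa, a U1 snRNP protein, had a change of -0.27 and Prpf8, at the catalytic centre, one of -0.19. The SF3 proteins of the U2 snRNP lay between -0.17 (Sf3b3) and -0.05 (Sf3b1), and Prpf19 and Snrpd1 stood at -0.07 each.

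The 6 neural splicing regulators had a median change of -0.19, 5 of them below 0 as deposited and when scaled, and none was called. The summed neuron markers were also lower as deposited (96.9 to 111 FPKM against 126 to 136 FPKM in controls). So were the summed neural stem cell markers (1469 to 1794 FPKM against 1801 to 2221 FPKM), and 77.1% of all tested entries. Taken singly, the stem cell markers Nes and Sox2 and the neuron marker Rbfox3 overlapped between groups. The part of these markers in the values of the 6 genes was not tested. The most abundant was Tardbp, which encodes the RNA-binding protein TDP-43, at 59.9, 50.6 and 49.9 FPKM in controls and 40.5, 59.5 and 47.4 FPKM with circHIPK2 siRNA. The groups overlapped, with a change of -0.13 ± 0.15 (SE), which was -0.0048 without circHIPK2 siRNA library 1 and -0.28 without library 2. Rbfox2, which binds GCATG in introns, was the lowest in level and had the most negative change of its class, -0.35 ± 0.19 (SE). It was at 8.12, 5.20 and 5.50 FPKM in controls and 3.92, 6.09 and 4.13 FPKM with circHIPK2 siRNA, which overlapped.

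Ptbp1, the polypyrimidine tract binding protein of progenitors, was at 57.4, 52.2 and 51.7 FPKM in controls and 46.8, 52.4 and 43.0 FPKM with circHIPK2 siRNA. Ptbp2, its neural counterpart, was at 30.6, 35.3 and 32.4 FPKM in controls and 28.8, 22.4 and 27.6 FPKM with circHIPK2 siRNA. As deposited, the values of Ptbp1 overlapped and those of Ptbp2 did not. The changes were -0.18 ± 0.11 and -0.32 ± 0.12 (SE), with adjusted p of 0.387 and 0.242 by limma. Scaled, the values of both genes overlapped, and the changes were -0.06 and -0.20. Ptbp3 was at 6.33, 6.07 and 6.77 FPKM in controls and 7.10, 6.43 and 5.76 FPKM with circHIPK2 siRNA, a change of 0.00 ± 0.10 (SE). Celf1, which binds GU-rich RNA, had a change of -0.21 ± 0.13 (SE).

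The ratio of 2 relatives within a library does not depend on how libraries are scaled, and it was compared for 6 pairs. With 3 against 3 libraries the exact two-sided permutation test cannot give a p below 0.1. The ratio of Hnrnph2 to Hnrnph1 was 0.358, 0.342 and 0.331 in controls and 0.372, 0.427 and 0.391 with circHIPK2 siRNA. It was higher in each circHIPK2 siRNA library than in each control, by 0.21 on the log2 scale, with the smallest p the exact test allows, 0.1 (0.6 after Benjamini-Hochberg adjustment over the 6 pairs). With its near-identical copy Gm8775 added to Hnrnph2, the ratios were 0.379, 0.409 and 0.351 in controls and 0.395, 0.455 and 0.455 with circHIPK2 siRNA, which overlap, and the exact permutation p was 0.2. The ratio of Tra2b to Tra2a was 0.667, 0.586 and 0.627 in controls and 0.788, 1.12 and 0.648 with circHIPK2 siRNA. Its groups overlapped, and the difference of 0.41 gave an exact permutation p of 0.2 (adjusted 0.6). Without circHIPK2 siRNA library 2 the difference was 0.19, and with the copies of Tra2b added it was 0.23.

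The ratio of Ptbp2 to Ptbp1 was 0.533, 0.676 and 0.627 in controls and 0.614, 0.427 and 0.642 with circHIPK2 siRNA. These overlapped, and the difference of -0.14 gave an exact permutation p of 0.6 (adjusted 0.72). The remaining 3 pairs also overlapped, with differences of 0.26 for Clk4 to Clk1, 0.12 for Hnrnpa2b1 to Hnrnpa1 and -0.14 for U2af2 to U2af1, and exact permutation p of 0.3, 0.5 and 0.8 (adjusted 0.6, 0.72 and 0.8). The U2af2 to U2af1 ratio was 3.38, 4.58 and 3.31 in controls, with control library 2 alone high, and 3.38, 3.38 and 3.33 with circHIPK2 siRNA.

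Several of these genes have near-identical copies elsewhere in the genome, so their reads may have been divided. In GENCODE M21, 17 of the 50 had another gene matching a transcript of theirs at 95% identity or more over at least 300 bases. There were 69 such copies, of which 64 were annotated as processed pseudogenes, and 68 were in the table. For 9 of the 17, the copies together stood at a higher mean FPKM than the gene itself. Each FPKM is scaled to the length of its own transcripts, so such sums are not the divided reads put back together. Levels and changes of these 17 genes are therefore uncertain.

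Gm10052, a copy of Hnrnpa1, was at 473, 395 and 434 FPKM in controls and 309, 376 and 301.5 FPKM with circHIPK2 siRNA, so it was lower in every circHIPK2 siRNA library, as Hnrnpa1 was. Gm12435, a copy of Hnrnpf, was at 73.4, 64.6 and 72.0 FPKM in controls and 60.6, 68.5 and 56.7 FPKM with circHIPK2 siRNA. Its lowest 3 libraries were those in which Hnrnpf was near 50 FPKM, and the copy varied over a smaller range. For Hnrnpa3 the 27 copies summed to 502 FPKM, against 29.8 FPKM for Hnrnpa3. Of the copies 43 were tested, 39 were below 0, with a median change of -0.17, and none was called (smallest adjusted p of 0.184 by limma, and 7 at an unadjusted p below 0.05). Of all tested entries, 77.1% were below 0, with a median change of -0.12, and 0.255% were called. At an unadjusted p below 0.05 by limma, 15.5% of all tested entries were lower and 1.83% higher.

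Adding the FPKM of the copies to that of their gene, each scaled to its own length, moved some changes and gave no call. Srsf5 moved from -0.29 to -0.09, its copy Gm12966 being at 128, 104 and 120.4 FPKM in controls and 102, 129.8 and 116 FPKM with circHIPK2 siRNA. Srsf3 moved from -0.43 to -0.26, Hnrnpf from -0.46 to -0.27, Hnrnpk from -0.31 to -0.23, and Tra2b from -0.01 to -0.19. Hnrnpa1 changed little, from -0.37 to -0.40. The 33 genes without a copy had a median change of -0.20, of which 30 were below 0, and the 17 with a copy had one of -0.19, of which 15 were below 0.

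**Figure D3:**
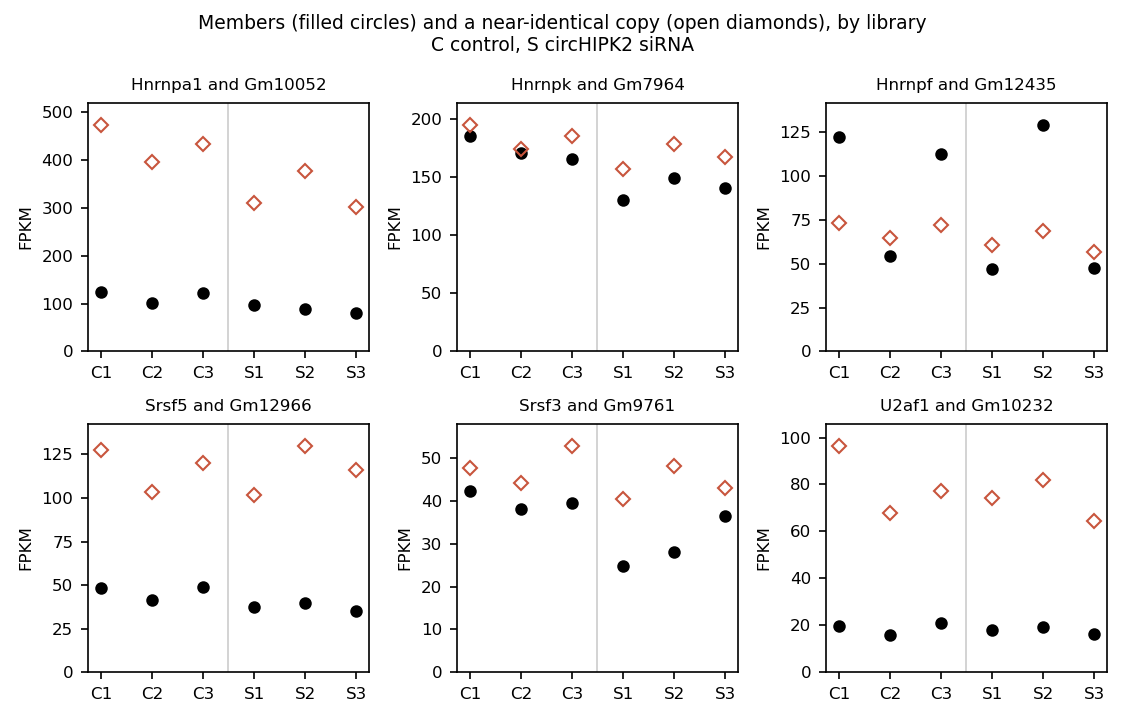
FPKM in each library (C, control 1 to 3; S, circHIPK2 siRNA 1 to 3) of 6 genes (filled circles) and a near-identical copy of each (open diamonds). The copy stands above the gene in each library for Hnrnpa1, Hnrnpk, Srsf5, Srsf3 and U2af1, and Hnrnpf moves over a wider range than its copy.

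Annotated transcripts of these genes include many that do not encode the full protein. In GENCODE M21, 33 of the 50 (66.0%) had a transcript annotated for nonsense-mediated decay, against 29.8% of the 11277 protein-coding entries tested, and 41 of the 50 (82.0%) had a retained-intron transcript, against 59.9%. Among the SR proteins 11 of 12 had a decay transcript, Srsf10 being the exception, and among the hnRNPs 6 of 14. The genes had a median of 9.5 annotated transcripts, against 5 for all protein-coding entries tested, and the number of known transcripts differs with how well a gene has been studied. The table gives a single value per gene, so productive and decay transcripts were not told apart. Exons of 21 of the 50 overlapped exons of another gene, 18 of them on the opposite strand, and no source used here states whether counting used strand. The longest such overlaps were Tardbp with Masp2 (1817 bases) and Srsf4 with Gm12992 (1532 bases), and Masp2 and Gm12992 averaged 3.61 and 9.73 FPKM.

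The libraries of a group differed in the level of the whole set. The 50 genes made up 0.654%, 0.558% and 0.650% of FPKM in controls and 0.532%, 0.620% and 0.505% with circHIPK2 siRNA. Without the 9 ribosomal RNA linked entries in the total, the shares were 0.658%, 0.561% and 0.652% against 0.601%, 0.640% and 0.631%, which overlap. The median of the 50 genes relative to their control means was 0.08, -0.08 and 0.02 in controls and -0.24, -0.06 and -0.27 with circHIPK2 siRNA. Over all tested entries the same median was 0.02, -0.04 and 0.03 in controls and -0.13, -0.02 and -0.20 with circHIPK2 siRNA. Library 2 of the circHIPK2 siRNA group, with the smallest ribosomal RNA linked share of its group, lay within the range of the controls on both measures.

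**Figure D4:**
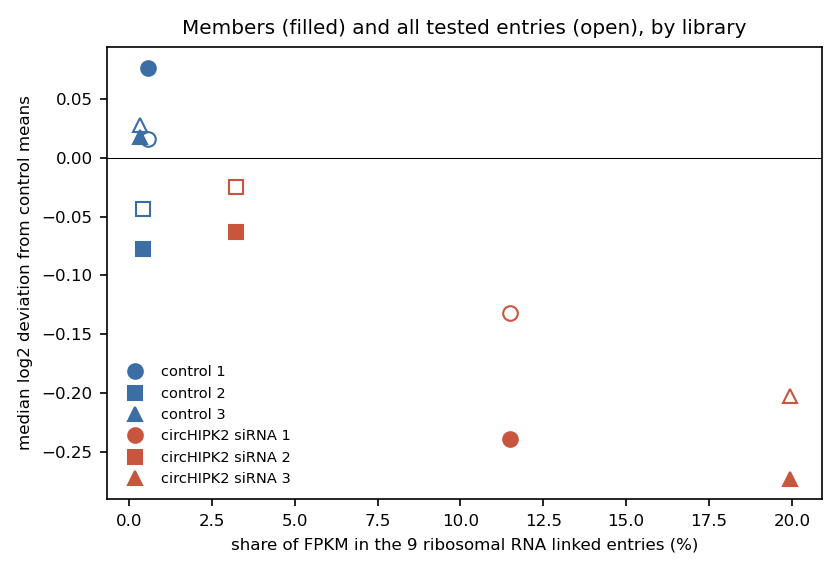
Median log2 deviation from the control means (vertical axis) against the share of FPKM in the 9 ribosomal RNA linked entries in percent (horizontal axis), for the 50 genes (filled) and all tested entries (open) in each of the 6 libraries. The controls sit at shares below 1%, and circHIPK2 siRNA libraries 1 and 3, at 11.5% and 19.9%, have the lowest medians for the 50 genes (-0.24 and -0.27).

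A further 128 splicing genes, listed by class, gave a similar picture. Of these 116 were tested and 0 were called, the smallest adjusted p by limma being 0.132. As deposited 101 were below 0 (87.1%, against 77.1% of all tested entries), with a median of -0.18. Entirely lower were 28 (24.1%), near the 22.1% of all tested entries, and entirely higher were 2, Sf3b4 and Khdrbs3, against 2.65% of all entries. The smallest p belonged to Snrpg, the SmG core protein of snRNPs, at 17.7, 17.8 and 10.6 FPKM in controls and 5.66, 9.07 and 5.63 FPKM with circHIPK2 siRNA. Each circHIPK2 siRNA library of Snrpg was below each control, with control library 3 nearest to them. Its change was -1.07 ± 0.23 (SE), and -0.96 when scaled. Snrpg was called when limma gave each library a weight of its own, with an adjusted p of 0.0409. That setting called 55 of all tested entries higher and 265 lower, against 16 and 19 in the main fit. Lsm4, of the ring that binds U6 snRNA, was at 61.6, 59.0 and 64.7 FPKM in controls and 44.7, 53.6 and 43.4 FPKM with circHIPK2 siRNA, a change of -0.39 ± 0.11 (SE) with an adjusted p of 0.187 by limma.

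Among the further hnRNPs, Hnrnpll had a change of -0.36 (adjusted p of 0.168 by limma) and Hnrnpdl one of -0.33 (0.199). Hnrnpll was at 23.0, 21.5 and 19.8 FPKM in controls and 16.1, 16.1 and 17.1 FPKM with circHIPK2 siRNA, with no overlap. Among other SR-related genes, Luc7l2 had a change of -0.61, with overlapping groups, and Luc7l3 one of -0.24 (adjusted p of 0.268 and 0.276 by limma), and among other regulators Rbm4 and Rbm5 had changes of -0.51 and -0.40 (0.233 and 0.215). The 12 listed genes below 1 FPKM on average included Rbfox1 at 0.124, Rbfox3 at 0.227 and Srrm4 at 0.0682 FPKM, regulators that are high in mature neurons, and the epithelial regulators Esrp1 and Esrp2 at 0.00163 and 0.0534 FPKM.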

How the data were processed

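FPKM values per gene for 3 control and 3 circHIPK2 siRNA libraries were used as deposited by the authors. Per the labels' protocols, poly(A) RNA was selected and dUTP strand-marked libraries with molecular identifiers in the adapters were sequenced from both ends. The submitters' processing notes name HISAT, StringTie, edgeR and build mm9, and no source used here gives versions, annotation, or the use of strand and identifiers.

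Entries averaging 1 FPKM or more (13702 of 54884) were compared as log2(FPKM + 1) with limma 3.58.1 in R 4.3.3 (trend, two-sided, Benjamini-Hochberg over all tested entries, no minimum fold), after tests on simulated data. The pseudocount understates changes of low genes. FPKM holds no counts; between 33.5% and 37.6% of low values lay within 0.05 of a whole step of the depths given. Copies were found with blastn 2.17.0. Pair ratios were tested in scipy 1.17.1.

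Alternatives were other pseudocounts (0.1, 0.5), filters (none, mean of 5 FPKM), scalings and limma settings, a replicate block, leaving out each library and, chosen after seeing the data, adding copies. The genes, lists and alternatives were chosen with earlier results of these data known. Named with every library's value were called genes, the highest level, largest rise and largest fall of each class, and the genes of the 6 pairs. Of the further genes the 2 smallest p per list were named, with every library's value for Snrpg, Lsm4 and Hnrnpll only. Genes outside this rule were named after their values were seen.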

Additional observations from a re-analysis of the deposited data

How the results depend on the processing

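No gene of the 50 was called under any of the 19 settings, and the smallest adjusted p among them was 0.0507 (Srsf3, limma with library weights). The counts over all tested entries, 16 higher and 19 lower, were less stable. Higher entries numbered 7 with no filter, 9 with median-of-ratios scaling, 4 with quantile normalization, 8 with robust moderation and 55 with library weights, and between 2 and 15 when a library was left out. Lower entries numbered 8 with a mean of at least 5 FPKM, 12 with quantile normalization and 265 with library weights, and between 6 and 23 when a library was left out. The lowest counts, 2 and 6, came without circHIPK2 siRNA library 3.

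The median of the 50 genes lay 0.08 below that of all entries on the log2 scale (-0.08). This was -0.18 with no filter and -0.025 with quantile normalization, and between -0.10 and -0.054 when a library was left out. Of the 50 genes 26 kept their direction under all settings.

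With median-of-ratios scaling the changes turned to 0.11 for Tra2b, 0.018 for Hnrnpc, 0.085 for Hnrnph1, 0.0091 for Hnrnpm, 0.067 for Sf1, 0.035 for Sf3a1, 0.067 for Sf3b1, 0.020 for Sf3b2, 0.031 for U2af1, 0.055 for Prpf19 and 0.049 for Snrpd1. With quantile normalization they turned to 0.057 for Srsf6, 0.044 for Srsf11, 0.13 for Tra2b, 0.0089 for Hnrnpab, 0.094 for Hnrnpc, 0.15 for Hnrnph1, 0.053 for Hnrnpm, 0.11 for Sf1, 0.061 for Sf3a1, 0.10 for Sf3b1, 0.083 for Sf3b2, 0.051 for U2af1, 0.11 for Prpf19, 0.075 for Snrpd1, 0.013 for Ptbp1 and 0.058 for Tardbp. With the ribosomal RNA linked entries removed and columns rescaled, which also changes what the pseudocount and filter weigh, they turned to 0.081 for Srsf6, 0.022 for Srsf10, 0.061 for Srsf11, 0.19 for Tra2b, 0.014 for Hnrnpa3, 0.026 for Hnrnpab, 0.10 for Hnrnpc, 0.17 for Hnrnph1, 0.091 for Hnrnpm, 0.15 for Sf1, 0.12 for Sf3a1, 0.15 for Sf3b1, 0.10 for Sf3b2, 0.033 for Sf3b3, 0.11 for U2af1, 0.010 for Prpf8, 0.14 for Prpf19, 0.13 for Snrpd1, 0.0049 for Snrnp70, 0.022 for Ptbp1 and 0.071 for Tardbp. Library weights gave 0.039 for Tra2b and -0.011 for Hnrnph2.

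When each library was left out in turn, changes ranged from -0.078 to 0.10 for Tra2b, -0.16 to 0.11 for Hnrnph1, -0.20 to 0.024 for Hnrnpm, -0.11 to 0.14 for Hnrnpu, -0.13 to 0.059 for Sf1, -0.15 to 0.030 for Sf3b1, -0.20 to 0.094 for Prpf19, -0.16 to 0.020 for Snrpd1 and -0.059 to 0.071 for Ptbp3. For 32 of the 50 genes, leaving out some library moved the change by over 1.5 times or turned it, and no single library did so for all of these (12 to 21 genes per library). The pair ratios ranged from 0.19 to 0.59 for Tra2b to Tra2a, 0.16 to 0.45 for Clk4 to Clk1, 0.15 to 0.25 for Hnrnph2 to Hnrnph1, -0.25 to 0.044 for Ptbp2 to Ptbp1, -0.057 to 0.23 for Hnrnpa2b1 to Hnrnpa1 and -0.23 to 0.0075 for U2af2 to U2af1. With copies summed, chosen after seeing the data, the 6 pair ratios kept their direction and all overlapped between groups.

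Whether the replicate numbers pair the libraries was not resolved. Over all tested entries, same-numbered libraries correlated at 0.05, 0.02 and 0.13 in their deviations from the group means. Libraries of different number correlated at between -0.17 and 0.12. Deviations of 3 libraries from their mean sum to 0, so these correlations depend on each other and cannot exclude pairing. With a replicate block, 23 entries were called higher and 23 lower, none of them among the 50 genes (smallest adjusted p 0.123 by limma); of the further splicing genes Snrpg was called with the block (adjusted p 0.0198), and Snrpg and Lsm4 with library weights (0.0409 and 0.0490). Median-of-ratios scaling with the replicate block gave 0 higher and 1 lower, and the same turned changes as that scaling alone. Why calls and directions moved was not tested. The median standard error of the 50 changes was 0.12 with 3 libraries per group, and smaller changes than the 95% intervals span were not resolved.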
